A study of Mus musculus with 2 samples.

Results

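The genes described here are 10 genes of haem and iron handling, chosen by symbol from the 31058 features counted: Hmox1, Blvra, Blvrb, Fth1, Ftl1, Slc40a1, Tfrc, Slc48a1, Hebp1 and Hpx. All 10 had a row in the count tables. They were followed across cell classes and proximal tubule segments of kidneys after rhabdomyolysis, the breakdown of skeletal muscle. Droplet single-cell RNA-seq had been done on all kidney cells of female C57Bl/6 mice, 9 weeks old. The CA3 group had rhabdomyolysis and received CA3, a compound that blocks the transcriptional coactivator YAP1. The vehicle group had rhabdomyolysis and received vehicle. Both had the genotype Pax8.rtTA;TetO.Cre;R26.FUCCI2aR, in which a Pax8-driven transactivator can switch on Cre in kidney epithelium and Cre a fluorescent cell cycle reporter. Each group was 1 library. How many animals made up a library, when they were collected after injury and how much CA3 they received is not stated in the sources used here. Uninjured kidneys were not analysed here.

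Muscle breakdown releases myoglobin, a haem protein that is filtered and taken up by proximal tubule cells through the receptors megalin (Lrp2) and cubilin (Cubn). Haem is carried out of the lysosome by HRG1 (Slc48a1), opened by a haem oxygenase, the inducible Hmox1 or the constitutive Hmox2, and yields iron, carbon monoxide and biliverdin, which the reductases Blvra and Blvrb turn into bilirubin. The freed iron is stored in ferritin, a shell of heavy (Fth1) and light (Ftl1) chains, or leaves the cell through ferroportin (Slc40a1), while transferrin-bound iron enters through the transferrin receptor (Tfrc). Hebp1 encodes a cytosolic haem-binding protein and Hpx the plasma haem scavenger hemopexin, made mainly in liver. In iron-poor cells, iron regulatory proteins bind a stem-loop, the iron responsive element. A bound element in the 5′ UTR blocks translation and bound elements in the 3′ UTR keep the mRNA from decay.

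The elements are shown because they set which of these genes iron is known to control through translation and which through mRNA level, and the values below are mRNA counts. Searched in 1 GENCODE transcript of each gene on GRCm38, the same assembly as mm10, 4 of the 10 genes held 7 elements. The 5′ UTR elements lie at chr19:9982732-9982760 on the plus strand for Fth1, at chr7:45459779-45459807 on the minus strand for Ftl1 and at chr1:45925465-45925493 on the minus strand for Slc40a1. The 3′ UTR elements found in Tfrc lie on the plus strand at chr16:32631219-32631247, chr16:32631598-32631626, chr16:32631663-32631691 and chr16:32631710-32631738. Capitals mark the bulged C and the loop.
Fth1: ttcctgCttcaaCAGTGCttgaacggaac
Ftl1: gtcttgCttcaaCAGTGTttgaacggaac
Slc40a1: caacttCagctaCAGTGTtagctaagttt
Tfrc element 1: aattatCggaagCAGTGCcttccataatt
Tfrc element 2: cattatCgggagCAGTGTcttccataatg
Tfrc element 3: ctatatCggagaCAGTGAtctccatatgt
Tfrc element 4: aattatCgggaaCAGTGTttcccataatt
The search asked for a C, any 5 bases and then CAGTGN, with all 5 upper and at least 4 of 5 lower stem positions paired, G-T pairs allowed. The 10 genes were searched in the sense strand only. By the same rule, 21825 genes were searched in their longest protein-coding transcript. Of these, 28 held such an element in the sense strand, or 0.128%, and 19 held one in the reverse complement, or 0.0871%. No match was found in the other 6 genes, which says only that these letters are not there. Elements that depart from this pattern would be missed in all 10 genes, Tfrc among them.

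Levels are given as CPM, the UMIs of a gene summed over the cells of a class in 1 library, scaled to a total of 1e+06 UMIs of genes not encoded in mitochondria, with exact Poisson or binomial intervals at the 95% level that cover counting error only. A UMI tags 1 molecule at its 3′ end, so levels are not scaled by gene length. The CA3 library kept 1492 of 1724 barcodes and the vehicle library 1763 of 1967, with between 3506 and 115815 UMIs per barcode before filtering in CA3 and between 3784 and 112355 in vehicle. Myoglobin (Mb) had 0 UMIs in both libraries. Cells fell into 21 clusters, which were named from their markers as proximal tubule-like (11 clusters, 1162 CA3 and 1433 vehicle cells), thick ascending limb-like (41 and 72), distal convoluted and connecting tubule-like (52 and 56), principal-like (14 and 22), intercalated-like (18 and 15), endothelial-like (45 and 59), T or NK-like (96 and 50), phagocyte-like (39 and 37), B-like (17 and 5) and podocyte-like (3 and 6). Free RNA in droplets was visible: 10 genes of the proximal tubule stood in T or NK-like cells at a median of 8.31% of their tubule level in CA3 and 9.70% in vehicle. The T or NK-like level is therefore given where a low level matters. Rankings of classes leave out the B-like and podocyte-like classes, which do not have at least 10 cells in each library. The 2 libraries shared 1 cell barcode. Of the 31-base words in the last 500 bases of Ftl1, 89.8% also occur in other genes, mostly ferritin pseudogenes, against 22.6% for Fth1 and none for the other 8 genes, so the Ftl1 counts in particular are uncertain.

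Ferritin mRNA was the dominant product of the set in every class. In proximal tubule-like cells Fth1 stood at 10581 CPM in CA3 and 11405 in vehicle, and Ftl1 at 6307 in CA3 and 6549 in vehicle. Fth1 ranked 4 among all non-mitochondrial genes of this class in CA3 and 3 in vehicle, and Ftl1 ranked 6 in both. Fth1 and Ftl1 together made up 1.69% of the UMIs of proximal tubule-like cells in CA3 and 1.80% in vehicle. The phagocyte-like share was 1.35% in CA3 and 1.51% in vehicle. Among classes of at least 10 cells in each library, the share was lowest in principal-like cells in CA3 (0.343%) and in endothelial-like cells in vehicle (0.431%). Fth1 was highest in proximal tubule-like cells in both libraries, 1.38 times the next class in CA3, the distal convoluted and connecting tubule-like class, and 1.19 times the next in vehicle, the phagocyte-like class. These next classes stood at 7660 CPM in CA3 and 9569 in vehicle. The proximal tubule-like clusters of higher depth, described below, held only 5612 to 7965 CPM over both libraries, so this rank rested on the clusters of lower depth. T or NK-like cells held 2686 CPM of Fth1 in CA3 and 3078 in vehicle, about 25.4% and 27.0% of the tubule level, above the median of the 10 tubule genes.

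**Figure D1:**
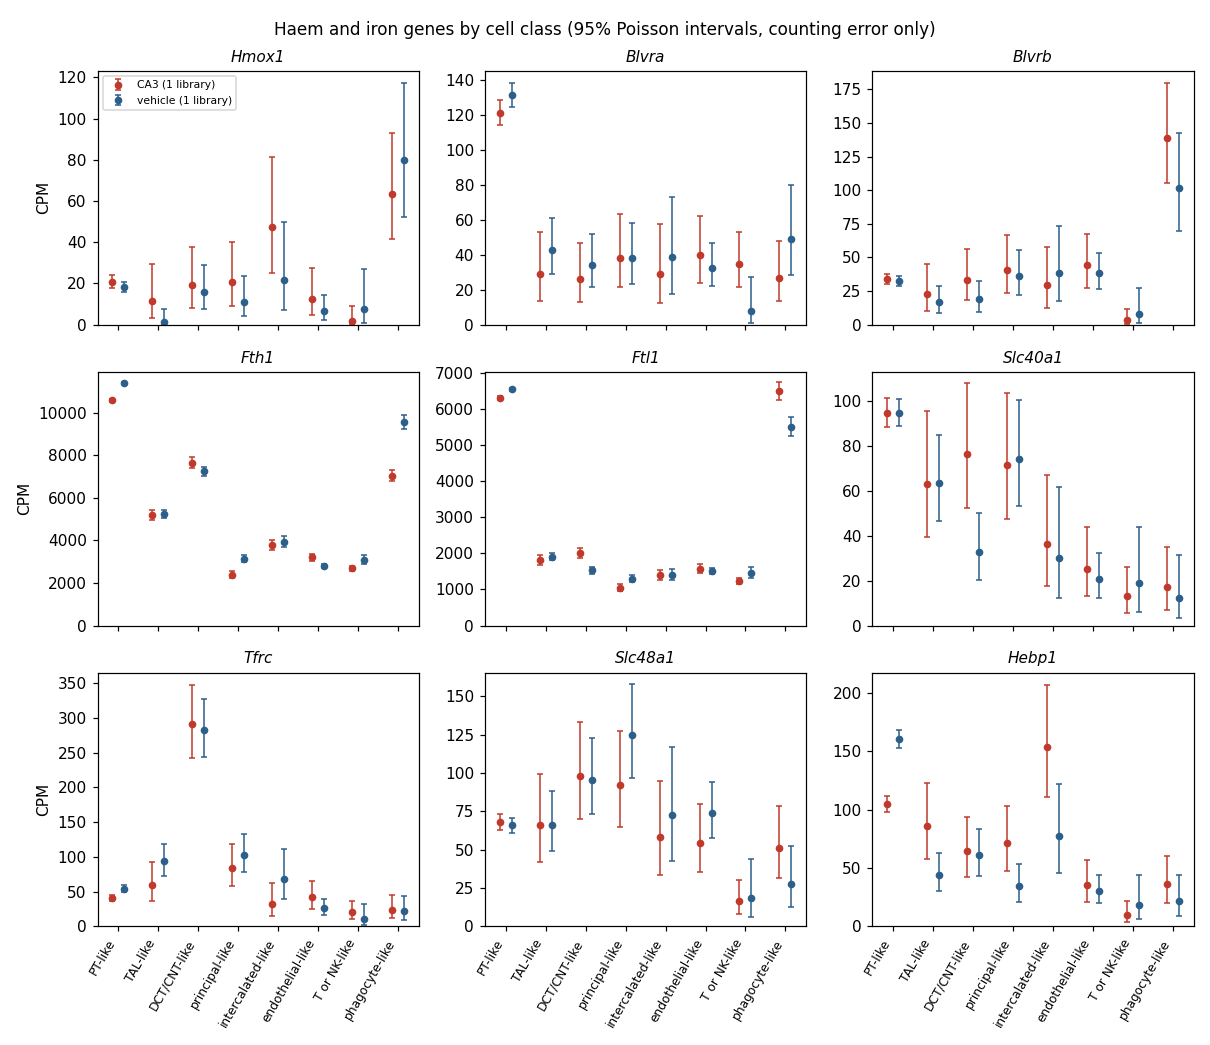
Levels of 9 genes (panels) in 8 cell classes, in CPM on the vertical axis, with CA3 (red, left) and vehicle (blue, right); bars around the points are 95% Poisson intervals of the counts. Fth1 and Blvra are highest in proximal tubule-like cells, Hmox1 and Blvrb in phagocyte-like cells and Tfrc in distal convoluted and connecting tubule-like cells, in both libraries.

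The balance of the chains differed between classes. Fth1 UMIs outnumbered Ftl1 UMIs 1.68 times in CA3 and 1.74 times in vehicle in proximal tubule-like cells. In distal convoluted and connecting tubule-like cells the ratio was 3.79 (3.52 to 4.10) in CA3 and 4.72 (4.40 to 5.06) in vehicle. Phagocyte-like cells had a ratio of 1.08 (1.03 to 1.14) in CA3 and 1.74 (1.64 to 1.84) in vehicle. Heavy chain, which carries the ferroxidase site, was therefore counted most in excess in the distal class among these 3. A CA3 phagocyte-like cell held 1148 of the 2667 Ftl1 UMIs of its class, and without it the class stood at 4100 CPM of Ftl1, against 4702 in vehicle without its own highest cell. The libraries put different classes on top for Ftl1, phagocyte-like in CA3 by 1.03 times and proximal tubule-like in vehicle by 1.19 times, and the CA3 order turned when that cell was left out.

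Haem breakdown was split between classes. Hmox1, the inducible haem oxygenase, was highest in phagocyte-like cells, at 63.4 CPM (41.4 to 92.8) in CA3 and 80.1 (52.3 to 117) in vehicle, against 20.8 (17.9 to 23.9) and 18.1 (15.6 to 20.9) in proximal tubule-like cells. A Hmox1 UMI was found in 33.3% of phagocyte-like cells in CA3 and 32.4% in vehicle, and in 12.7% of proximal tubule-like cells in CA3 and 9.56% in vehicle. In T or NK-like cells the share was 1.04% in CA3 and 4% in vehicle, whose interval of 0.0264% to 5.67% lies below the tubule interval in CA3 while that of 0.488% to 13.7% overlaps it in vehicle. Median depths were 9061 and 7572 UMIs in phagocyte-like, 7830 and 7191 in proximal tubule-like and 6083 and 5144 in T or NK-like cells, in CA3 and vehicle. With each cell thinned to 2000 UMIs, the shares were 10.3% and 16.2% in phagocyte-like and 3.80% and 2.72% in proximal tubule-like cells. Intercalated-like cells followed with 47.4 CPM in CA3 and 21.4 in vehicle, from 13 and 5 UMIs. Their interval of 25.3 to 81.1 in CA3 overlaps that of phagocyte-like cells and not that of the tubule, and their interval in vehicle overlaps that of the tubule and not that of phagocyte-like cells. Without the highest phagocyte-like cell of each library, Hmox1 there was 48.5 (29.2 to 75.8) in CA3 and 56.7 (33.6 to 89.6) in vehicle, still above the tubule. The proximal tubule-like class, the largest, held most Hmox1 UMIs, 191 in CA3 and 192 in vehicle, against 26 and 26 in phagocyte-like cells.

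The constitutive oxygenase Hmox2 was counted more often than Hmox1 in proximal tubule-like cells, 3.08 times (2.62 to 3.65) in CA3 and 3.86 times (3.29 to 4.55) in vehicle. In phagocyte-like cells the ratio was 1.31 (0.762 to 2.27) in CA3 and 1.19 (0.685 to 2.09) in vehicle. Hmox2 thus outnumbered Hmox1 beyond counting error in the tubule, and in phagocyte-like cells a difference was not detectable at this depth. The 2 biliverdin reductases divided in the same places. Blvra, which acts on the main biliverdin isomer, stood at 121 CPM in CA3 and 132 in vehicle in proximal tubule-like cells, 3.04 and 2.67 times the next class. Blvrb, which is also a flavin reductase, stood there at 33.8 in CA3 and 32.4 in vehicle. In phagocyte-like cells Blvrb had 139 CPM in CA3 and 102 in vehicle, and Blvra 26.8 in CA3 and 49.3 in vehicle. The Blvra to Blvrb ratio was accordingly 3.59 (3.16 to 4.08) in CA3 and 4.07 (3.61 to 4.59) in vehicle in the tubule, and 0.193 (0.0912 to 0.372) in CA3 and 0.485 (0.249 to 0.906) in vehicle in phagocyte-like cells. The CA3 cell with the most Blvrb held 31 of 57 UMIs of the class. Without the highest cell of each library, Blvrb in phagocyte-like cells was 70.2 CPM (45.8 to 103) in CA3 and 72.4 (45.9 to 109) in vehicle, still above the tubule level.

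The phagocyte-like cluster was mixed, and Blvrb, Fth1 and Ftl1 differed within it. Besides Lyz2 and Cd74, its leading genes held the plasma cell genes Igha, Igkc and Jchain and the neutrophil gene S100a9. Cells with under 10 UMIs of phagocyte markers, or with at least as many UMIs of another blood lineage, were set aside, 5 in CA3 and 8 in vehicle. Of these, 1 vehicle cell held 22 Hmox1 UMIs. With the cells set aside included, Hmox1 was 58.8 CPM in CA3 and 111 in vehicle. Cd163, the haptoglobin-haemoglobin receptor, had 1 UMI in each library. Cells with a UMI of the complement genes C1qa, C1qb or C1qc, macrophage markers, numbered 17 in CA3 and 16 in vehicle. Their Blvrb level was 262 CPM in CA3 and 186 in vehicle, against 50.2 and 28.7 in cells with none. Fth1 was 10843 in CA3 and 15245 in vehicle in cells with a C1q UMI, against 4311 and 4656 in cells with none, and Ftl1 was 10755 and 8605, against 3444 and 2839. A single CA3 cell held 31 of the 45 Blvrb and 1148 of the 1844 Ftl1 UMIs of the cells with C1q. Leaving out the cell with the most UMIs of the gene from each of these sets, Blvrb was 106 CPM (58.2 to 179) in CA3 and 125 (74.3 to 198) in vehicle with C1q, against 30.7 (12.3 to 63.3) and 17.7 (3.66 to 51.8) without, and the CA3 intervals overlap. Ftl1 was then 5291 in CA3 and 7464 in vehicle with C1q, against 2684 and 2864 without, and Fth1 9069 and 13820, against 4069 and 4070. Tfrc was 11.7 CPM in CA3 and 13.3 in vehicle with C1q, from 2 and 2 UMIs, against 33.5 and 28.7 without, and Slc40a1 17.5 and 19.9, against 16.7 and 5.75, with intervals that overlap. Hmox1 also did not divide beyond counting error: it was 52.5 in CA3 and 99.6 in vehicle with C1q, from 9 and 15 UMIs, and 71.1 and 63.2 without, from 17 and 11 UMIs.

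Slc40a1 and Tfrc were highest in different tubule classes, and of these only Tfrc stood clear of the next tubule class. Tfrc is 1 of 13 iron uptake genes on the pathway list used below. Ferroportin (Slc40a1) was highest in proximal tubule-like cells, at 94.9 CPM in CA3 and 94.9 in vehicle, with 40.1% and 38.2% of cells holding a UMI against 4.17% and 8% of T or NK-like cells. Its interval overlaps that of the next class in both libraries, distal convoluted and connecting tubule-like in CA3 (76.5) and principal-like in vehicle (74.1). The transferrin receptor (Tfrc) was highest in distal convoluted and connecting tubule-like cells, at 291 CPM (242 to 348) in CA3 and 283 (243 to 327) in vehicle, 3.45 and 2.75 times the next class, principal-like. Proximal tubule-like cells had 40.5 of Tfrc in CA3 and 54.4 in vehicle. Slc40a1 UMIs outnumbered Tfrc UMIs 2.34 times in CA3 and 1.74 times in vehicle in the proximal class, and were 0.262 times as many in CA3 and 0.116 times in vehicle in the distal class. Phagocyte-like cells held 7 and 4 Slc40a1 UMIs, or 17.1 CPM in CA3 and 12.3 in vehicle, close to the 13.2 and 18.8 of T or NK-like cells, so ferroportin in them was not detectable above free RNA at this depth.

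Of the haem carriers, Slc48a1 was counted in all tubule classes, between 58.4 and 98.0 CPM in CA3 and between 65.8 and 125 in vehicle. It stood at 68.0 in CA3 and 65.8 in vehicle in proximal tubule-like, 98.0 and 95.4 in distal convoluted and connecting tubule-like, and 92.0 and 125 in principal-like cells. T or NK-like cells held 16.5 in CA3 and 18.8 in vehicle. Among classes of at least 10 cells in each library, the top class of Slc48a1 differed between libraries, and the intervals of its highest classes overlap. Podocyte-like cells held 269 CPM in CA3 and 214 in vehicle, from 7 and 9 UMIs in 3 and 6 cells. The gene overlaps Hdac7 on the other strand, and whether counting used strand is not stated in the sources used here. Hebp1 was highest in proximal tubule-like cells (105 CPM in CA3 and 160 in vehicle) and in intercalated-like cells (153 and 77.2). The intervals of these classes just meet in CA3 (98.0 to 111 and 110 to 207) and are apart in vehicle (153 to 168 and 45.7 to 122). T or NK-like cells held 9.89 of Hebp1 in CA3 and 18.8 in vehicle. Hebp1 overlaps Gm34391 on its own strand and Gm22881, Gm19434 and Fam234b on the other. Hpx had 1 UMI in the kept CA3 cells, in an S2-like proximal tubule cell, and 0 UMIs in the vehicle cells, which allows a level of up to 0.208 CPM there.

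The proximal tubule begins with segment S1 next to the glomerulus and ends with S3 in the outer medulla. S2-like clusters held 397 CA3 and 505 vehicle cells, S1-like clusters 458 and 559, and the S3-like cluster, led by Kap and Slc7a12, 11 and 33. Clusters with 296 and 336 cells were given no segment. A gene was counted as different between segments where it passed 1.5 times in the same direction in both libraries with at least 20 UMIs in each. Of 10428 genes measured, 13.4% did so between S2-like and S1-like cells, 5.29% higher and 8.14% lower in S2-like cells. Of the 9 genes of the set that were measured, Blvra and Blvrb did, both higher in S2-like cells. Blvra stood at 140 CPM in S2-like against 80.2 in S1-like cells of CA3, and at 158 against 86.5 in vehicle, ratios of 1.75 (1.52 to 2.02) in CA3 and 1.82 (1.60 to 2.07) in vehicle. The Blvrb ratio was 1.61 (1.23 to 2.11) in CA3 and 1.93 (1.46 to 2.55) in vehicle. With a stricter cell filter (a minimum of 1000 genes, mitochondrial share up to 25%), 0 genes of the set passed in both libraries. Hebp1 was higher in S2-like cells too, 1.41 times (1.20 to 1.65) in CA3 and 1.84 times (1.63 to 2.07) in vehicle. Slc40a1 did not differ beyond counting error between them, with ratios of 0.960 (0.830 to 1.11) in CA3 and 0.972 (0.849 to 1.11) in vehicle.

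**Figure D2:**
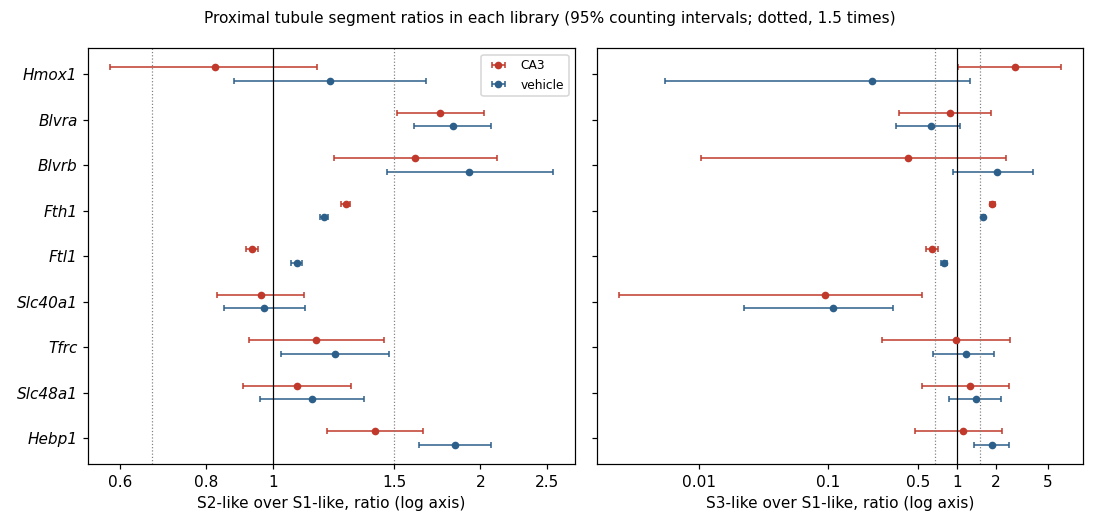
Ratio of the level in S2-like over S1-like cells and in S3-like over S1-like cells, on a log axis, for each gene and library, with 95% intervals of the counts and dotted lines at 1.5 times either way. Blvra and Blvrb lie beyond 1.5 in S2-like cells of both libraries, and in S3-like cells Fth1 lies above 1.5 and Slc40a1 far below 1.

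In the small S3-like cluster Slc40a1 was low, and Fth1 was higher than in all S1-like cells pooled. Between S3-like and S1-like cells 38.7% of 9638 genes passed 1.5 times in both libraries, 30.7% lower and 7.96% higher in S3-like cells, and 2 of 9 of the set did, Slc40a1 lower and Fth1 higher, a smaller share than that of all genes. Slc40a1 had 1 UMI in the 11 S3-like cells of CA3 and 3 UMIs in the 33 of vehicle, 10.1 and 11.5 CPM, against 106 in S1-like cells of CA3 and 106 in those of vehicle. The ratios were 0.0952 (0.0024 to 0.534) in CA3 and 0.108 (0.0223 to 0.319) in vehicle, and the S3-like level lay at or below the 13.2 in CA3 and 18.8 in vehicle of T or NK-like cells. Fth1 was 15691 CPM in S3-like against 8385 in S1-like cells of CA3, and 14827 against 9309 in vehicle, ratios of 1.87 (1.78 to 1.97) and 1.59 (1.54 to 1.65). Among the other proximal tubule-like clusters of lower depth, the S3-like level lay within their range in CA3 and below it in vehicle. Without the 3 S3-like and S1-like cells with the most Fth1 in each library the ratios were 1.40 in CA3 and 1.5 in vehicle. Ftl1 went the other way, with ratios of 0.641 (0.577 to 0.710) in CA3 and 0.791 (0.745 to 0.839) in vehicle, which put the Fth1 to Ftl1 ratio of S3-like cells at 4.19 in CA3 and 3.34 in vehicle, against 1.44 and 1.66 in S1-like cells. Over 13 alternatives the Ftl1 ratio ran between 0.545 and 1.26 in CA3 and between 0.657 and 1.20 in vehicle. Its direction thus depended on the processing in both libraries.

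Fth1 differed more between proximal tubule-like clusters of lower and higher depth than between segments. Clusters fell into those with a median depth of at least 10925 UMIs per cell and those between 5242 and 6700. In S1-like cells the lower-depth cluster, led by Vcam1 and Cxcl10, had a median of 6198 UMIs in CA3 and 5934 in vehicle with mitochondrial shares of 24.8% and 22.8%. The higher-depth cluster without stress genes had medians of 11757 and 10081 UMIs with shares of 12.4% and 11.1%. Fth1 was 2.46 times higher in the lower-depth cells in CA3 and 2.47 times in vehicle, Ftl1 2.02 and 2.03 times, Blvra 2.17 and 2.10 times and Hebp1 2.18 and 2.27 times. Slc40a1 went the other way, at 0.884 (0.703 to 1.11) in CA3 and 0.717 (0.575 to 0.892) in vehicle, and Tfrc at 0.599 (0.395 to 0.889) and 0.616 (0.448 to 0.840). In S2-like cells Fth1 was 2.09 and 2.11 times higher at lower depth and Slc40a1 0.698 and 0.401 times as high, while Tfrc, at 0.872 (0.562 to 1.36) in CA3 and 1.19 (0.840 to 1.69) in vehicle, did not differ beyond counting error. These S1-like and S2-like clusters differ in depth, mitochondrial share and leading genes at once, and their parts in the difference cannot be told apart there. A lower-depth cluster without a segment, with a median of 6300 UMIs, had the lowest mitochondrial share of all 11 clusters, 7.15%. Its Fth1 level was 14626 CPM in CA3 and 16338 in vehicle. In the higher-depth clusters that share ran between 10.9% and 13.8%. The part of each trait was not tested.

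**Figure D3:**
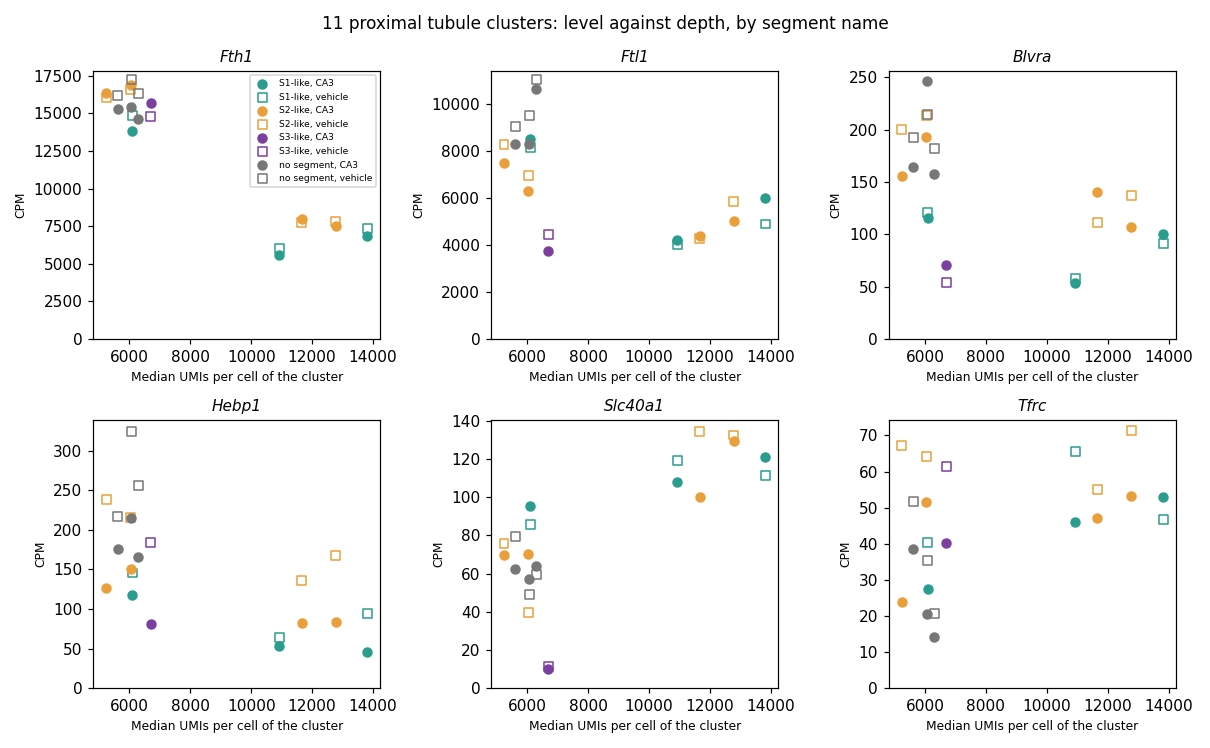
Level of 6 genes in each of the 11 proximal tubule-like clusters (vertical axis, CPM) against the cluster's median UMIs per cell (horizontal axis), coloured by segment, with filled circles for CA3 and open squares for vehicle. Fth1 lies between 13804 and 17257 in the clusters of lower depth and between 5612 and 7965 in those of higher depth, and Slc40a1 runs the other way.

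Set against lower-depth S1-like cells alone, S3-like cells, with median depths of 9766 UMIs in CA3 and 6526 in vehicle, had an Fth1 ratio of 1.14 (1.08 to 1.20) in CA3 and 0.998 (0.964 to 1.03) in vehicle. Slc40a1 stayed low, at 0.106 (0.00266 to 0.600) in CA3 and 0.135 (0.0274 to 0.402) in vehicle, and Ftl1 at 0.439 and 0.544. With segments given to each cell by its own marker UMIs, 86 CA3 and 158 vehicle cells were late, and Slc40a1 was 0.581 times as high in CA3 and 0.436 times in vehicle as in the 1074 and 1259 early ones. The S2-like excess of Blvra was present at lower depth (1.55 in CA3, 1.73 in vehicle) and at higher depth without stress genes (2.63 and 1.93), and was 1.07 (0.782 to 1.47) in CA3 and 1.5 (1.17 to 1.94) in vehicle among clusters led by stress genes such as Cyr61, Fosb and Jun. High Blvra in S2-like cells was thus seen both at lower depth and at higher depth without stress genes. In CA3 the median depth of S3-like cells lay above the 6198 UMIs of the lower-depth S1-like cells and above the 9000 UMIs that divide the ranges, so their CA3 values were not compared at matched depth. In vehicle the medians were 6526 in S3-like and 5934 in lower-depth S1-like cells, and there Slc40a1 was lower in S3-like cells and Fth1 did not differ beyond counting error.

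Between CA3 and vehicle the set moved little in proximal tubule-like cells. Of the 9 genes with at least 20 UMIs, Hebp1 alone passed 1.5 times, lower in CA3. Among all 11790 genes measured in the class, 7.91% passed, 4.61% lower and 3.31% higher, so 1 of 9 is near that background. Hebp1 had 961 UMIs in CA3 and 1699 in vehicle, a ratio of 0.652 (0.602 to 0.706), and a UMI in 47.7% of CA3 cells and 59.7% of vehicle cells, or 19.1% and 26.1% after thinning. In T or NK-like cells 6.25% of CA3 cells and 4% of vehicle cells held one. The ratio was below 1 in 11 of 11 clusters, between 0.438 and 0.841, with an interval wholly below 1 in 9. It was 0.740 in S1-like, 0.566 in S2-like, 0.438 in S3-like and 0.702 in cells without a segment. With the mean over cells the ratio was 0.671, without the clusters led by stress genes 0.677 and after thinning 0.685, each short of 1.5 times. Tfrc came next, at 0.743 (0.651 to 0.848), with 10 of 11 clusters below 1 and 2 intervals wholly below it, and passed 1.5 times after thinning, at 0.618.

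Over the whole class the ferritin chains were slightly lower in CA3, Fth1 by a ratio of 0.928 (0.920 to 0.936) and Ftl1 by 0.963 (0.952 to 0.974). Counting error alone does not span these differences, but 1 library per group cannot set them against the spread between animals. Ftl1 differed in direction within the class, at 1.04 (1.02 to 1.06) in S1-like and 0.895 (0.877 to 0.912) in S2-like cells. Of 11 clusters, Ftl1 had an interval wholly below 1 in 7 and wholly above 1 in 3. For Fth1 these numbers were 7 and 0. The middle 80% of Fth1 levels in single tubule cells ran between 4073 and 19593 CPM in CA3 and between 4108 and 20675 in vehicle. Slc40a1 had a ratio of 1.0 (0.912 to 1.10), Slc48a1 1.03 (0.927 to 1.15), Blvrb 1.05 (0.894 to 1.22), Blvra 0.923 (0.852 to 0.999) and Hmox1 1.15 (0.934 to 1.41). The intervals of Slc40a1, Slc48a1, Blvrb and Hmox1 hold 1 and lie within 1.5 times either way.

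**Figure D4:**
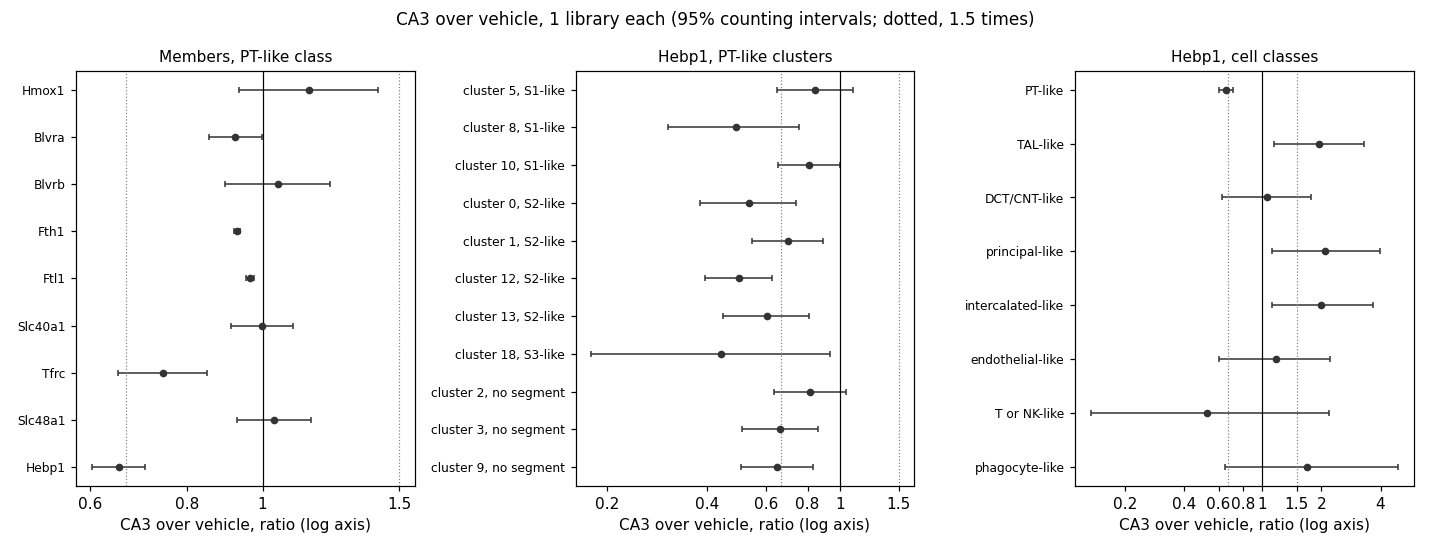
Ratio of the level in CA3 over vehicle on a log axis, with 95% intervals of the counts: the genes in proximal tubule-like cells, Hebp1 in each proximal tubule-like cluster, and Hebp1 in each class. Hebp1 is at 0.652 in proximal tubule-like cells and below 1 in all 11 clusters, and above 1 in thick ascending limb-like (1.95), principal-like (2.09) and intercalated-like cells (1.99).

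In the smaller classes counts were low and ratios spread widely. Over all classes 14 of the 60 pairs of gene and class with at least 20 UMIs passed 1.5 times. The share of all measured genes past that fold was 26.7% in thick ascending limb-like, 25.6% in principal-like, 27.6% in intercalated-like, 24.8% in distal convoluted and connecting tubule-like, 26.1% in endothelial-like, 25.8% in T or NK-like, 26.2% in phagocyte-like, 43.3% in B-like and 37.6% in podocyte-like cells, the last with 19.6% lower in CA3. The share of genes higher in CA3 was 10.7% in thick ascending limb-like, 9.52% in principal-like and 13.3% in intercalated-like cells. Hebp1 was higher in CA3 in thick ascending limb-like cells, with a ratio of 1.95 (1.14 to 3.31) from 30 UMIs in 16 cells against 32 in 24, which was 1.34 under the stricter cell filter. It was also higher in principal-like cells, with 2.09 (1.12 to 3.95) from 28 UMIs against 19, and in intercalated-like cells, with 1.99 (1.12 to 3.67) from 42 UMIs in 15 cells against 18 in 9. In distal convoluted and connecting tubule-like cells it was 1.06 (0.623 to 1.77). The 10 proximal tubule genes were at a median of 3.05% of their tubule level in CA3 and 11.5% in vehicle in thick ascending limb-like cells. The medians were 3.84% and 6.55% in principal-like, and 1.76% and 9.08% in intercalated-like cells, lower in the library where Hebp1 was higher. Single genes among the 10 reached 79.3% in CA3 and 105% in vehicle in thick ascending limb-like cells, and 101% and 109% in intercalated-like cells. These medians therefore do not measure free RNA alone, and the part of free RNA in the ratios was not tested.

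Slc40a1 in distal convoluted and connecting tubule-like cells was 76.5 CPM in CA3 and 32.8 in vehicle, a ratio of 2.33 (1.30 to 4.25) from 32 and 21 UMIs, which was 1.44 at Leiden resolution 0.5. The 10 proximal tubule genes stood there at a median of 17.9% of their tubule level in CA3 and 11.2% in vehicle. They ranged from 1.24% to 182% in CA3 and from 0.542% to 161% in vehicle, so these medians do not measure free RNA alone. Median depths were 7160 and 12746 UMIs, and the part of free RNA and depth in the ratio was not tested. Ftl1 in that class had a ratio of 1.32 (1.20 to 1.44). In phagocyte-like cells Fth1 was 7040 CPM in CA3 and 9569 in vehicle, a ratio of 0.736 (0.699 to 0.774), with the mixture of cells described above. Blvra in T or NK-like cells passed 1.5 times on 21 UMIs in CA3 against 2 in vehicle, with an interval of 1.13 to 40.5.

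The other genes of the pathway were counted from a list of 77 genes in 9 groups, of which 76 had a row and 59 at least 20 UMIs in proximal tubule-like cells. None of the 59 was higher past 1.5 times in CA3 and 5 were lower, Hebp1 among them, beside 3.31% of all genes higher and 4.61% lower. The median log2 ratio of the list was -0.05 beside -0.0015 over all 11790 genes. The other 4 were low in counts. Cp, the ferroxidase ceruloplasmin, had 66 UMIs in CA3 and 127 in vehicle, a ratio of 0.599 (0.438 to 0.813). Ambp, which encodes the haem-binding α1-microglobulin, had 10 and 20, the ferrireductase Steap3 had 12 and 26, and Bmp2 had 0 and 20. Bmp2 met the limit of 20 UMIs through its vehicle UMIs alone, so its call as lower followed from that limit and is not read as a difference. The genes of uptake at the brush border stayed within that fold, Lrp2 at 2479 CPM in CA3 and 2745 in vehicle, Dab2, an adaptor of megalin, at 642 and 664, and Amn, the partner of cubilin, at 261 and 251. In the haem synthesis group 8 of 8 measured genes stayed within 1.5 times, Alad, the porphobilinogen synthase, at a ratio of 0.857 (0.798 to 0.919). The largest ratios above 1 with an interval clear of it were those of Hfe, the haemochromatosis gene, at 1.42 (1.13 to 1.78), and Slc25a37, the mitochondrial iron importer mitoferrin, at 1.38 (1.15 to 1.64).

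In other classes, calls in the pathway list often rested on few cells. Lcn2, a siderophore-binding protein known as a marker of tubule injury, was 5.16 times higher (3.45 to 7.88) in CA3 in thick ascending limb-like cells, with 87 UMIs against 35, and 3 of 41 CA3 cells held 67 of the 87. In distal convoluted and connecting tubule-like cells it had 127 UMIs in CA3 against 12 in vehicle, and 1 CA3 cell held 124 of the 127. Cp had 20 UMIs in CA3, 19 of them in 1 cell, and 0 in vehicle in that class, so it met the limit of 20 UMIs through CA3 alone. Of 46 measured list genes in thick ascending limb-like cells, 3 were higher and 8 lower past 1.5 times in CA3, where 10.7% of all genes were higher and 16.0% lower. Of 47 in distal convoluted and connecting tubule-like cells 6 were higher and 3 lower, against 12% and 12.9% of all genes. Of 44 in principal-like cells 6 and 8 were, against 9.52% and 16.1%, and of 34 in intercalated-like cells 10 and 4, against 13.3% and 14.3%. Endothelial-like cells had 11 and 8 of 49, against 11.3% and 14.8%, T or NK-like cells 4 and 5 of 29, against 13.4% and 12.4%, and phagocyte-like cells 4 and 4 of 33, against 14.2% and 12%. In thick ascending limb-like cells 4 of 4 measured genes of haem protein uptake were lower, with a median log2 ratio of -2.23 against -0.04 over all 6889 genes measured there. The proximal tubule genes stood there at the medians of 3.05% in CA3 and 11.5% in vehicle given above, and the part of free RNA was not tested.

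For each gene with enough counts, the genes with the most similar pattern over 12 pairs of class and library (6 classes) were found by Pearson's r of log2 levels among 6811 genes. The points share libraries and depth, and the coefficients are a description. The most similar gene was Ost4 for Blvra (0.922), Grn for Blvrb (0.944), Plin3 for Fth1 (0.887), Anpep for Ftl1 (0.931), Hibadh for Slc40a1 (0.967), Cyb5rl for Tfrc (0.976), Pcyox1 for Slc48a1 (0.956) and Alas1, the first enzyme of haem synthesis, for Hebp1 (0.950).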

How the data were processed

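Raw UMI counts per gene and cell were deposited by the authors, made with Cell Ranger 3.0.1 on mm10 per the submitters' processing notes from 3′ libraries of the 10x Chromium instrument per the labels. No source used here gives the cell calling, the read filters or the use of strand. Barcodes with under 500 genes or over 50% mitochondrial UMIs were left out (230 in CA3, 200 in vehicle), as were 2 and 4 cells with at least 1% globin UMIs. Scrublet marked 3 CA3 and 1 vehicle cells as doublets and none was removed, so doublets may remain. After scaling to 10000 UMIs and a log transform, cells of both libraries were clustered with scanpy 1.11.5 (2000 variable genes without the genes of the pathway list, 30 principal components, 15 neighbours, Leiden resolution 1) and named from marker lists, so the names are rebuilt. Phagocyte-like cells with under 10 UMIs of phagocyte markers, or with at least as many UMIs of another blood lineage, were set aside. This step was chosen after the cells were seen, as were the S2-like comparison and the depth split at 9000 UMIs. Levels and intervals were computed with scipy 1.17.1, numpy 2.4.6 and python 3.11.15, and plots with matplotlib 3.10.9. CA3 over vehicle ratios carry exact conditional binomial intervals for 2 Poisson counts. With 1 library per group there is no test, and cells are not replicates. Ratios were read only with at least 20 UMIs over both libraries, and the limit given with a count of 0 is 3 UMIs. Ratio intervals were tested on simulated data, with an outcome not given here, and they cover counting error only. Coordinates, transcripts and UTRs come from GENCODE vM21 on GRCm38. Of each pathway group the text may name the highest gene and up to 4 genes with the largest log2 ratio in a class. The genes C1qa, C1qb, C1qc, Mb, Cd163 and Hmox2, and the cell holding most UMIs of a gene, were chosen after values were seen. The 10 genes, the lists and the rules were chosen with earlier results of these data known. Alternatives are given in the closing section.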

Additional observations from a re-analysis of the deposited data

Results flagged for a closer look

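Hebp1 was lower in CA3 than in vehicle in proximal tubule-like cells, with a ratio of 0.652, and higher in thick ascending limb-like (1.95), principal-like (2.09) and intercalated-like cells (1.99). It was singled out because the direction was opposite between classes in the same pair of libraries. The difference between classes was not tested, since each group is 1 library. The UMIs in the 3 smaller classes were 30 in CA3 and 32 in vehicle, 28 and 19, and 42 and 18, in 41 and 72, 14 and 22, and 18 and 15 cells. After thinning each cell to 2000 UMIs, a Hebp1 UMI was seen in 17.1% of CA3 and 5.56% of vehicle thick ascending limb-like cells, in 7.14% and 0% of principal-like cells, and in 33.3% and 20% of intercalated-like cells. With so few cells, the intervals of these shares overlap between the libraries in each of the 3 classes, so a direction after thinning cannot be read from them. The part of free RNA and depth in these ratios was not tested. In the other classes with at least 20 Hebp1 UMIs the intervals held 1. The ratio was 1.06 (0.623 to 1.77) in distal convoluted and connecting tubule-like and 1.17 (0.602 to 2.22) in endothelial-like cells. Phagocyte-like cells had 1.69 (0.650 to 4.91), from 15 UMIs in CA3 and 7 in vehicle.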

How the results depend on the processing

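No paired analysis was possible because each group is 1 library. In proximal tubule-like cells, 1 of 9 genes passed 1.5 times (Hebp1), and 0 did with the mean over cells or without the clusters led by Cyr61, Fosb or Jun. Hebp1 itself lay between 0.648 and 0.685 over 13 alternatives and Tfrc between 0.618 and 0.757. Of pairs of gene and class, 14 passed 1.5 times, against 2 (of 29 measured) with cells thinned to 2000 UMIs and 9 (of 46) without the 3 cells of each library with the most UMIs of the gene. Between S2-like and S1-like cells, 2 genes passed in both libraries, against 1 with no cell filter, 0 under a stricter one (1000 genes, 25% mitochondrial UMIs), 5 at Leiden resolution 0.5, 1 with the pathway genes kept in the clustering, 1 among the higher-depth clusters led by stress genes and 1 among the clusters of lower depth. The S3-like over S1-like ratio of Hmox1 in CA3, from 6 UMIs, was 0 without the 3 highest cells, and that of Ftl1 in CA3 was 1.26 with segments given to each cell. In vehicle that of Ftl1 also crossed 1, reaching 1.20 at its highest. Hebp1 in thick ascending limb-like cells fell to 1.34 at its lowest, and Slc40a1 in distal convoluted and connecting tubule-like cells lay between 1.44 and 3.94. The causes were not tested. Each library clustered on its own gave no S3-like over S1-like value in both. Among the recomputed single ratios, 1025 stayed within their counting interval, 193 moved out of it and 2 reversed. Classes of under 60 cells, and the 11 and 33 S3-like cells, limit what can be read at this depth.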
